A study of Sus scrofa domesticus with 4 samples.

Results

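The 10 genes described here handle fatty acids inside and around the cell: the fatty acid binding proteins FABP3, FABP4 and FABP5, the nuclear receptors PPARA, PPARD and PPARG, the fatty acid translocase CD36, lipoprotein lipase (LPL), the lipid droplet coat protein PLIN2 and the adipogenesis regulatory factor ADIRF. They are 10 of 3029 genes that could be named on the array, chosen as non-control probes whose RefSeq mRNA belongs to a listed pig gene, and every such probe was used. FABP5, higher with orexin B on all 4 arrays, and ADIRF, lower on all 4, were selected on those same ratios, and the others were listed with results of these arrays known. The ratios below are therefore a description, and no p-value is given for any of the 10 genes.

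Orexin B is a neuropeptide ligand of the orexin receptors, and the series asked how it acts on gene expression in pig uterine muscle around implantation. Slices of myometrium from the middle of the uterine horns of 4 gilts (Large White x Polish Landrace, mature, 7 to 8 months old, days 15 to 16 of gestation) were preincubated for 2 h and then kept for 24 h with 10 nM orexin B or with no treatment. Treated and untreated RNA was hybridised together on 4 Agilent arrays of 2 colours, numbered 1 to 4. Cultures were made in duplicate, and the labels do not say whether duplicates were pooled. They also do not say whether treated and untreated RNA on an array came from the same gilt. The SDs below measure the spread between the 4 arrays. These are explants of whole tissue, in which fewer cells of a type and less RNA per cell cannot be told apart.

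Every ratio is log2 of orexin B over untreated after background correction and loess normalization within each array, given as mean ± SD with n = 4 arrays. Its direction came from the dye fields of the labels, which put orexin B RNA in Cy5 for arrays 1 and 3 but in Cy3 for arrays 2 and 4. The labelling protocol in the same labels names only the first orientation. The deposited log2 ratios were red (Cy5) over green (Cy3) for arrays 1 and 3 and green over red for arrays 2 and 4. That is the orientation of the dye fields. Read as Cy5 over Cy3 on every array, FABP5 would be at 0.19, ADIRF at 0.37 and PLIN2 at 0.21, and 18.2% of tested probes would have the same sign on all 4 arrays, against 16.0% with the direction used here. Pairs of arrays of like orientation had a Pearson r of 0.14 and 0.36 over probes, and pairs of unlike orientation had r between -0.18 and 0.14.

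Probes entered the test where one of the channels, treated or untreated, was well above background on every array, which held for 19879 of 43603 probes. The share of probes well above background ran from 48.7% to 54.3% in the treated channel and from 37.6% to 58.2% in the untreated one. By limma's moderated test 0.0% of the 19879 had an adjusted p under 0.05, the smallest being 0.596. The unadjusted p was under 0.05 for 1534 probes (7.72%), which divided into 856 higher and 678 lower; if arrays were median centred and not loess normalized, the division was 172 and 5. Without array 4 the count was 726.

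Fatty acids are poorly soluble in water. CD36 and LPL act at the cell surface and capillary wall, where LPL releases fatty acids from lipoproteins and CD36 helps them across the membrane. Inside the cell, binding proteins of the FABP family carry them to membranes, to droplets coated by perilipins such as PLIN2, and to the nucleus, where PPARs bind fatty acids as ligands and, paired with an RXR receptor, regulate genes of lipid uptake, storage and oxidation. FABP4, PPARG, CD36, LPL and PLIN2 are known from fat cells, and several of them from macrophages and small vessels too.

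Of the 31 probes of the 10 genes, 15 were tested and they covered 7 genes. CD36, LPL and PPARA had no tested probe. FABP3, FABP5, PLIN2 and ADIRF were well above background on every array in both channels, whereas FABP4, PPARD and PPARG were tested through the treated channel alone. In the untreated channel the brightest probes of FABP4 and PPARD were well above background on 2 of the 4 arrays and that of PPARG on 3. A gene that qualified only through one channel could be favoured toward a value above 0, so no count or median over the tested members is used as support. For the same reason, the 4 genes of 7 with the same sign on all arrays (FABP3, FABP5, PPARG and ADIRF) are given beside a background of 16.0% of all tested probes, or 15.5% of 1979 named genes by their brightest tested probe, and nothing is read from the count.

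**Figure D1:**
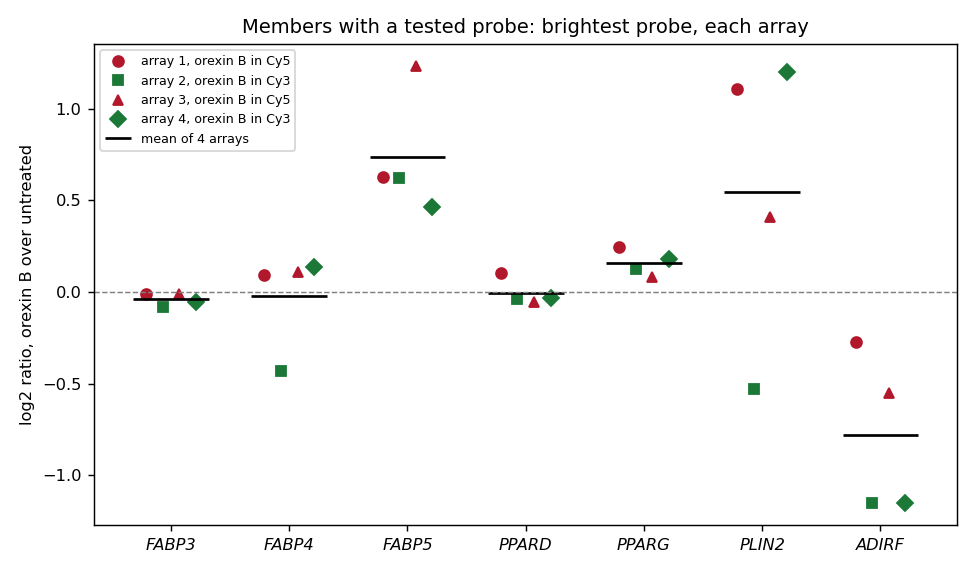
Log2 ratio of orexin B over untreated on each array for the brightest tested probe of 7 genes; colour gives the dye that orexin B RNA carried, symbols the array and bars the mean of 4 arrays. FABP5 lies between 0.46 and 1.23 and ADIRF between -1.15 and -0.27 on all arrays, PLIN2 has array 2 at -0.53 apart from the rest, and FABP3 stays between -0.084 and -0.012.

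FABP5, the epidermal-type fatty acid binding protein, also found in macrophages and endothelium, had the highest mean among the tested members. Its brightest probe had log2 ratios of 0.63, 0.62, 1.23 and 0.46 on arrays 1 to 4, a mean of 0.74 ± 0.34 (1.66-fold higher). All 4 arrays were above 0, with array 3 clearly the highest and the other arrays close together. The normalized level of this probe was 12.46, 12.77, 11.73 and 12.14 (log2 intensity) in the untreated channel and 13.09, 13.39, 12.96 and 12.60 in the treated one. The untreated and treated values overlapped between arrays, since the untreated level of array 2 exceeded the treated level of array 4, and the difference appears only within an array.

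The gene had 4 tested probes, which give a check on the spot measurement but not on the tissue, because they read the same RNA. Their means were 0.74, 0.65, 0.83 and 0.65. On array 3 the 4 probes lay between 1.15 and 1.41 and on array 2 between 0.47 and 0.64. On array 4 they ran from 0.0060 to 0.49, where probe A_72_P623937 had the lowest value and the other probes were at 0.43 or more. Averaged over the 4 probes, FABP5 was at 0.69, 0.57, 1.26 and 0.35 on arrays 1 to 4, so the order of the arrays was that of the brightest probe. For the brightest probe, arrays 1 and 3 (orexin B in Cy5) had a mean of 0.93 and arrays 2 and 4 one of 0.54.

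**Figure D2:**
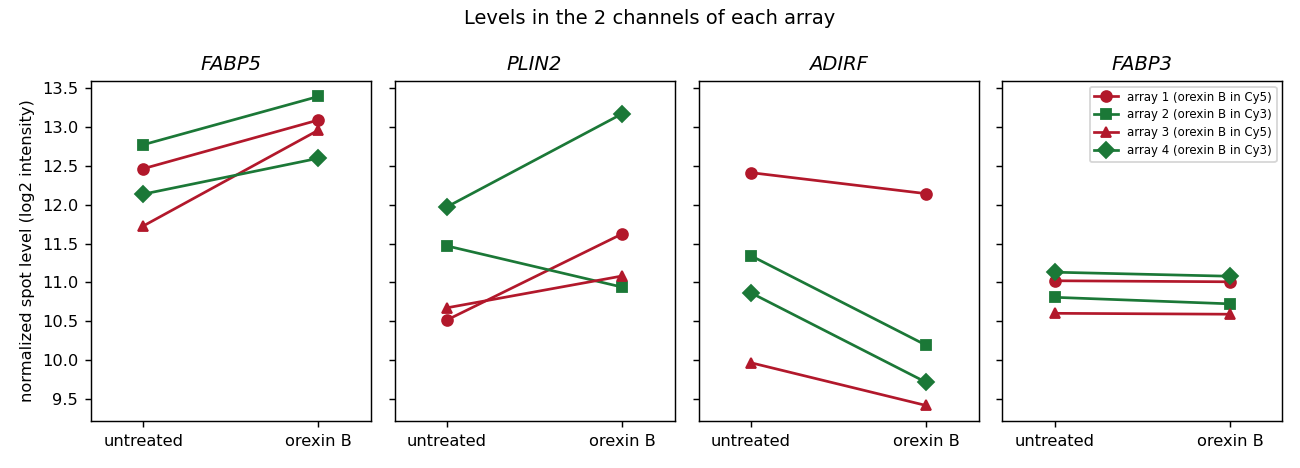
Normalized spot level (log2 intensity, loess and Aquantile) of the brightest probe in the untreated and treated channel; each line is an array, coloured by the dye of its orexin B RNA. FABP5 lines all slope up and ADIRF lines all slope down, the ADIRF level itself differs by 2.59 between the highest and lowest array, and FABP3 lines are flat; levels of different genes are not comparable.

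Macrophage markers also had means above 0. Of 13 listed, 9 were tested, all with a mean above 0. Of the 9, 3 had the same sign on all 4 arrays, against 15.5% of 1979 named genes. MRC1 had no value on array 1 and could not be counted there, with 0.18, 0.64 and 0.54 on arrays 2 to 4. In limma 0 of the 9 had an adjusted p under 0.05, and 8 had an unadjusted p under 0.05, all higher, against 10.5% of 1979 named genes. Read as Cy5 over Cy3 on every array, 6 of the 9 would have a mean above 0, with a median of 0.29. With the dyes as labelled, their median ratios on arrays 1 to 4 were 0.69, 0.18, 0.86 and 0.76. The summed level of the 8 markers measured on every array ran from 12.07 to 13.31 (log2) in the untreated channel and from 12.80 to 14.06 in the treated one, and CD80 was not well above background on any array. Both FABP5 and the marker median were highest on array 3, but FABP5 was at 0.62 on array 2, where the marker median was lowest. Blood endothelium markers, 4 tested of 9 listed, had array medians of 0.41, 0.19, 0.016 and 0.33. Of these 4, 3 had a mean above 0 and 2 had the same sign on all 4 arrays, against 15.5% of named genes. By limma 0 had an adjusted p under 0.05 and 2 an unadjusted p under 0.05, all higher, against 10.5% of named genes. Under the reading as Cy5 over Cy3, 2 would have a mean above 0, with a median of 0.047. The part of either cell type in the FABP5 ratio was not tested.

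FABP3, the heart and muscle type of the family, had the smallest spread by its brightest probe. Its brightest probe had ratios of -0.013, -0.084, -0.012 and -0.052, a mean of -0.040 ± 0.035. The other tested probes of FABP3 had means of -0.011 ± 0.23 and 0.030 ± 0.043, so the 3 probes did not share a sign, and the same sign on all arrays holds for the brightest one alone. The untreated level of that probe was 10.89 ± 0.23 and the treated level 10.85 ± 0.23. On that probe both channels were well above background and each array's ratio was under 0.1 in size, while averaged over the 3 probes FABP3 was at 0.11 on array 1 and -0.11 on array 2.

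FABP4, the adipocyte type, also known from macrophages and capillary endothelium, was close to background. Of its 7 probes, 2 were tested, and the brighter had ratios of 0.092, -0.43, 0.11 and 0.14, a mean of -0.024 ± 0.27. The second had 0.099, -0.45, 0.063 and 0.13. Both showed array 2 below and the other 3 arrays slightly above 0. Without array 2 the mean of the brighter probe was 0.11. In Agilent's processed signals the brighter probe had wider ratios, of 0.99, -1.09, 0.28 and 0.41 on arrays 1 to 4. FABP4 and FABP5 are close neighbours in the Sscrofa11.1 gene table, with PMP2 (another member of the family) and 1 gene listed only by a LOC number between them. PMP2, FABP1, FABP2 and FABP7 were not well above background on any array in either channel.

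Among the receptors, PPARG, the PPAR subtype of fat cells and macrophages, had a low but measurable signal. Its brightest probe gave ratios of 0.24, 0.13, 0.081 and 0.18, a mean of 0.16 ± 0.070. The other probes had means of 0.18 ± 0.17 and 0.13 ± 0.042, and of the 12 values from 3 probes and 4 arrays the lowest was -0.054 and the highest 0.34. The means with orexin B in Cy5 and in Cy3 were 0.16 and 0.15 for the brightest probe. With Agilent's processed signals the mean of this probe was 0.39, with array values of 0.75, 0.20, 0.10 and 0.50. The untreated channel of this probe was well above background on only 3 of the 4 arrays.

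PPARD, the widely expressed subtype, had 1 tested probe with ratios of 0.10, -0.037, -0.057 and -0.030 and a mean of -0.0047 ± 0.074. In Agilent's processed signals this dim probe had 1.16, -0.46, -0.23 and -0.21 on arrays 1 to 4, so its small spread depended on the processing. The second PPARD probe was not well above background on any array. PPARA, the subtype best known from liver fatty acid oxidation, had a single probe, which was not well above background on any array in either channel (levels between 7.44 and 7.66), so no ratio is reported as a measurement.

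The genes of uptake at the cell surface were not measured either. CD36 had 4 probes and stood well above background in 2 of 16 probe and array pairs in the treated channel and 2 of 16 in the untreated one. LPL had 5 probes and stood well above background in 1 of 20 pairs in each channel. For comparison, all 16 pairs of FABP5 were well above background in both channels. A dim probe gives only a bound, and probes differ in how well they hybridise, so this does not show that CD36 or LPL RNA was absent.

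**Figure D3:**
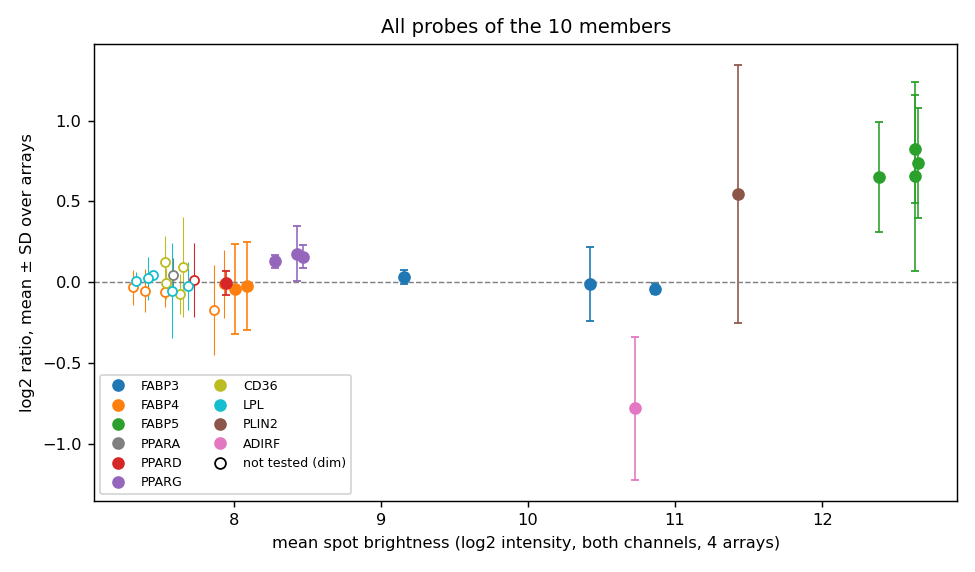
Mean log2 ratio ± SD over 4 arrays against mean spot brightness for all 31 probes of the 10 genes; filled points were tested and open points were too dim. The open points cluster at the dim end around 0, the 4 FABP5 probes lie together between 0.65 and 0.83, and PLIN2 has the longest error bar (SD 0.80); brightness of different probes does not rank expression.

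PLIN2, which coats lipid droplets and is commonly used as a sign of stored lipid, varied most between arrays in its ratio. Its single probe had 1.11, -0.53, 0.41 and 1.20 on arrays 1 to 4, a mean of 0.55 ± 0.80. Arrays 1, 3 and 4 were above 0 and array 2 below it, so the mean was smaller than the spread. It was 0.90 without array 2, 0.33 without array 4 and 0.36 without array 1. The untreated level was 11.16 ± 0.68 and the treated level 11.70 ± 1.02. On array 4 both channels were high, and the mean of both channels was 12.57 there against 10.88 to 11.20 on the others. Only 2.79% of tested probes had as large a range of levels between arrays.

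ADIRF, a small protein named for promoting fat cell differentiation, had the lowest mean. Its single probe had ratios of -0.27, -1.15, -0.55 and -1.15, a mean of -0.78 ± 0.44 (1.72-fold lower). All arrays were below 0, but the arrays with orexin B in Cy3 had a mean of -1.15 and those with it in Cy5 a mean of -0.41, a difference of 0.74. Without any 1 array the mean ran from -0.95 to -0.66.

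The level of ADIRF also differed between arrays more than that of any other tested member. It was 12.41, 11.34, 9.97 and 10.86 in the untreated channel and 12.14, 10.19, 9.42 and 9.71 in the treated one. The level in the untreated channel thus spanned 5.46-fold between arrays, beside a mean difference of 1.72-fold between treated and untreated within arrays. The arrays also differ in slide and in the dye of the untreated RNA, so the part of the tissue in that span cannot be told apart. Averaged over both channels the range was 2.59 on the log2 scale, against a median of 0.50 over all tested probes, and 0.543% of tested probes had a range as large. Array 1, where ADIRF was brightest, was alone on its slide, while arrays 2, 3 and 4 shared another; among those 3 the range was 1.08, and 6.87% of tested probes reached it.

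Smooth muscle markers were low on the same arrays. The 6 tested of 10 listed (ACTA2, CNN1, DES, MYLK, SMTN and MYL9) had median ratios of -0.049, -1.15, 0.25 and -1.32 on arrays 1 to 4, beside -0.27, -1.15, -0.55 and -1.15 for ADIRF. On array 3 the signs differed. Read as Cy5 over Cy3 on every array, all 6 markers would have a mean above 0, with a median of 0.64. The summed level of the 6 markers ran from 18.60 to 19.63 in the untreated channel and from 17.80 to 19.26 in the treated one, and each was well above background on every array. The 2 tested epithelial markers of 8 listed had medians of 0.33, -0.46, -2.09 and 0.89. The part of muscle or epithelial content in the ADIRF ratio was not tested.

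Adipocyte markers were not well above background or had a median ratio near 0. Of 10 adipocyte markers, ADIPOQ, PLIN1, CIDEC, RETN and ADIG were not well above background on any array in either channel. Tested were LEP and CIDEA, whose untreated channel was well above background on 3 arrays, and LIPE and GPD1. The median of the means of these 4 markers was 0.0013, and by array it was 0.22, -0.083, 0.038 and -0.086. Their summed level was 10.98 to 11.26 in the treated channel and 10.82 to 11.30 in the untreated one, and the groups overlapped. The part of fat cells in the members' ratios was not tested.

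The same signs for FABP5 and ADIRF on all arrays depended on the scaling. When arrays were median centred and not loess normalized, the median ratio of all tested probes shifted to 0.52, -0.52, 0.34 and -0.29 on arrays 1 to 4, that is, bright spots were redder on each array. Relative to that shift, FABP5 stood at 1.00, -0.088, 1.40 and 0.19 (mean 0.63) and ADIRF at 0.059, -1.49, -0.55 and -1.25 (mean -0.81). Array 2 for FABP5 and array 1 for ADIRF thus lay on the other side of 0, while both means kept their direction. Before that shift was taken off, none of the 7 members had the same sign on all arrays with median centring, and the background fell to 5.42% of tested probes. With Agilent's own processed signals FABP5 had a mean of 0.72 and ADIRF of -0.93.

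**Figure D4:**
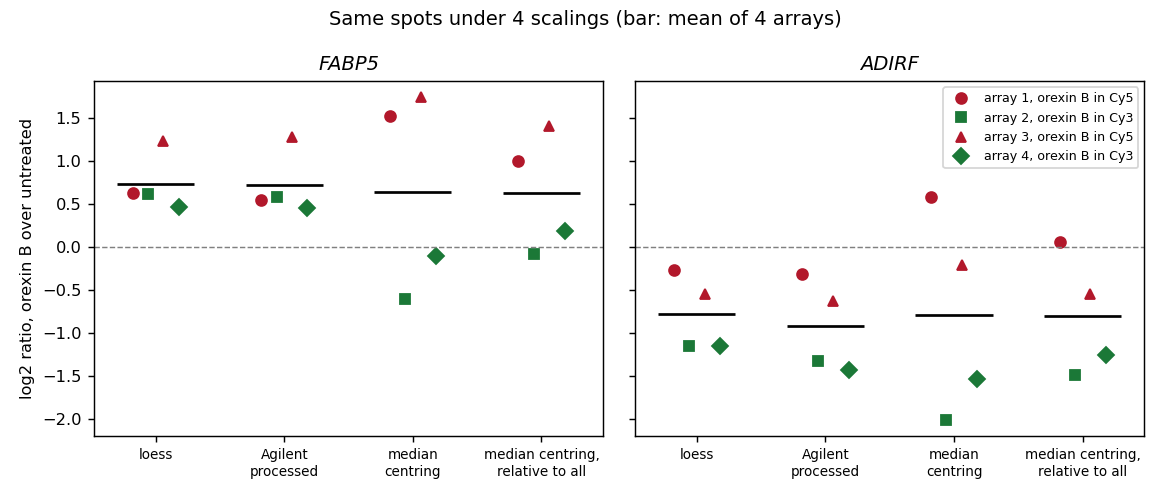
Log2 ratio of orexin B over untreated on each array for the brightest FABP5 probe and the ADIRF probe under loess, Agilent's processed signals, median centring, and median centring minus each array's median over tested probes; bars are means of 4 arrays and colours the dye of orexin B RNA. The bars lie between 0.63 and 0.74 for FABP5 and between -0.93 and -0.78 for ADIRF, while single arrays cross 0 with median centring.

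Other genes of these pathways were taken as 8 lists of 135 genes, of which 90 had a probe and 62 were tested. In the limma fit 0 of the 62 had an adjusted p under 0.05 in either direction (the smallest was 0.621), and 3 had an unadjusted p under 0.05, against 208 of 1979 named genes (10.5%) and 7.72% of all tested probes. Among these, named after their values were seen, were the lipid droplet protein PNPLA3 (0.33 ± 0.21) and the transcription factor KLF15 (-0.33 ± 0.27). The median of the 62 means was -0.010, against 0.017 over 1979 named genes with a tested probe. Means lay above 0 for 30 genes and below 0 for 32.

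The partners and coregulators of PPARs (7 tested of 17) had a median of 0.0087, and RXRB, a receptor with which PPARs pair, had -0.22 ± 0.38. RXRA was not analysed here. PPARGC1A, a coactivator of fatty acid oxidation, was well above background on 3 arrays in the treated and 2 in the untreated channel and was not tested.

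Genes of fatty acid oxidation and known PPAR targets (12 tested of 23) had a median of 0.017, with 6 means above and 6 below 0. ANGPTL4, an LPL inhibitor widely used as a readout of PPAR activity, had 0.38, -0.30, -0.073 and 0.18 on arrays 1 to 4, a mean of 0.047 ± 0.30. PDK4, a kinase that spares glucose when fatty acids are burned, had 1.15, 0.33, -1.37 and 1.21, a mean of 0.33 ± 1.20, with array 3 opposite to the rest. The mitochondrial fatty acid importers CPT1A and CPT1B had 0.097 ± 0.66 (3 arrays) and -0.14 ± 0.41. The oxidation enzyme ACADM had 0.070 ± 0.63, and the uncoupling protein UCP2 had -0.013 ± 0.12. Each of these means was smaller than its SD.

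The lists of supply and storage were as close to 0. Uptake and activation genes (9 tested of 16) had a median of 0.061; the acyl-CoA synthetases ACSL1, ACSL3 and ACSL4 had -0.29 ± 0.44, 0.063 ± 0.34 and 0.25 ± 0.67, the transporter SLC27A1 had -0.11 ± 0.22 and the lipoprotein receptor SCARB1 had 0.061 ± 0.26. Lipoproteins with their lipases and receptors (6 tested of 17) had a median of 0.016, with the lysosomal lipase LIPA at 0.046 ± 0.14, APOE at -0.25 ± 0.56 and VLDLR at -0.18 ± 0.48. Droplet and lipolysis genes (10 tested of 18) had a median of 0.023. In that list PLIN3, another perilipin, was at 0.073 ± 0.17, and the lipases PNPLA2 and LIPE were at -0.27 ± 0.45 and -0.067 ± 0.14. PLIN3 lay between -0.12 and 0.22, so it did not show the spread of PLIN2.

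Synthesis genes (9 tested of 19) had a median of -0.0074. Fatty acid synthase (FASN) had -0.0074 ± 0.59, the desaturase SCD -0.21 ± 0.26, the triacylglycerol enzyme DGAT1 -0.047 ± 0.075 and the regulator SREBF1 -0.30 ± 0.53. Adipogenic factors (5 tested of 13) had a median of -0.020, with CEBPB at -0.017 ± 0.54 and leptin (LEP) at 0.17 ± 0.19. The other lipid-binding proteins (4 tested of 12) all had means below 0 and a median of -0.35, and the retinol carrier RBP4 had -0.42 ± 1.84.

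**Figure D5:**
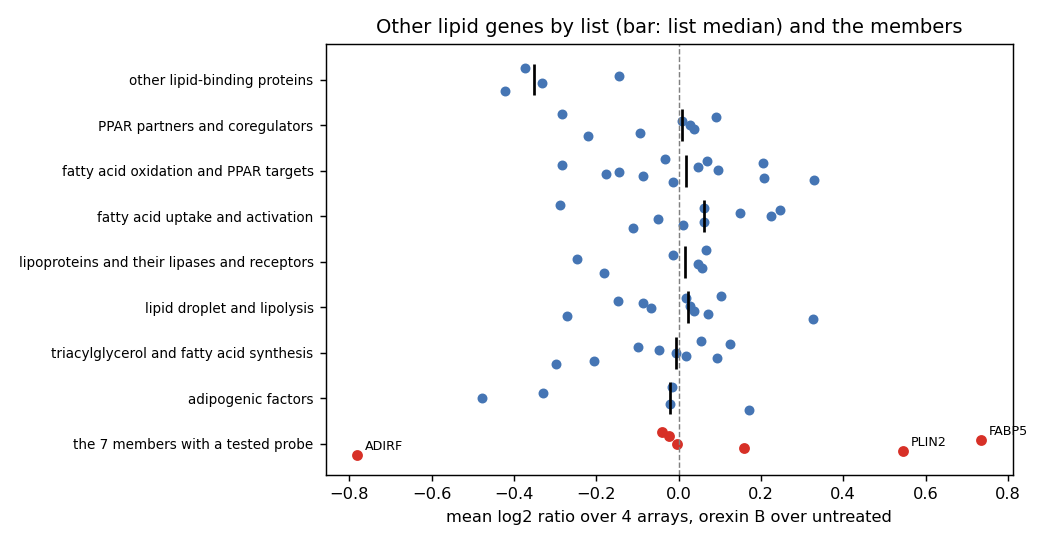
Mean log2 ratio over 4 arrays of the 62 other lipid genes, one point per gene by its brightest tested probe, in 8 lists with the list median as a bar, and the 7 tested members in red. The list genes lie between -0.48 and 0.33, inside the span from ADIRF (-0.78) to FABP5 (0.74).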

How the data were processed

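Per array, a deposited scanner file gives intensity values of each spot (median spot and local background brightness in Cy3 and Cy5) and processed intensity values that, per the file headers, the authors obtained with version 10.7.3.1 of Agilent Feature Extraction. The deposited series table holds log2 ratios, which matched log2 of processed red over green within 0.01 for 100% of probes once arrays 2 and 4 were turned; its column medians were -0.27, -0.082, -0.20 and -0.094, with no further centring.

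Here background was corrected by normexp (offset 50), each array was loess normalized (control spots had weight 0), spots marked as outliers (31 to 138 per array) were dropped and spots of a probe averaged (R 4.3.3, limma 3.58.1). Levels per channel were taken after Aquantile. A tested probe also needed unmarked spots on at least 3 arrays. Saturated probes numbered 0. The turned ratios were fitted with an intercept alone in lmFit and eBayes, two-sided, with Benjamini-Hochberg adjustment over 19879 probes. In simulated ratios for orexin B over untreated with the real spread of 19708 probes, the adjusted threshold was reached by 0% of probes with a change of 0.5 (log2), by 50% at a change of 1 and by 88% at a change of 2.

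Probes were named by RefSeq accession without version through the Sscrofa11.1 gene table (6700 matched, 36903 unnamed); the files name no build, and coordinates were not used. The brightest tested probe, by mean intensity over arrays, stood for a gene. Named were all 10 members, a fixed set of other lipid genes whatever their values, and the 4 genes nearest in pattern to FABP5 and ADIRF; PNPLA3 and KLF15 were named after their values were seen. A few list genes are counted but not reported here by name. Members and lists were chosen with earlier results of these data known. Alternatives covered background, scaling, source, filter, marked spots, dye, direction, slide, probe choice and leaving out single arrays. Python 3.11.15 with matplotlib 3.10.9 made the figures.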

Additional observations from a re-analysis of the deposited data

Results flagged for a closer look

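In 40 sets of 4 array values, 1 value far from the rest was sought by Dixon's ratio, and 4 were found where chance gives 2.0. Both tested FABP4 probes, which read the same RNA, had array 2 apart, at -0.43 against 0.092 to 0.14 for the brighter and at -0.45 against 0.063 to 0.13 for the other. PPARD was at 0.10 on array 1 against -0.057 to -0.030 on the other arrays. SREBF1, a regulator of fatty acid synthesis, was at 0.49 on array 3 against -0.67 to -0.49 elsewhere.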

How the results depend on the processing

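No probe and no gene of the lipid lists passed the adjusted threshold under any alternative run. The count at an unadjusted p under 0.05 (1534) was 177 with median centring, 2302 with no filter and 2382 with dye as a further term, and it ran from 726 to 1922 with 1 array left out, the lowest without array 4. Of the 7 tested members, 4 had the same sign on all arrays, against 16.0% of all tested probes. With median centring 0 did, against 5.42%, and with Cy5 over Cy3 on every array 0 did, against 18.2%. FABP5 and ADIRF were selected on their sign, so nothing is read from these counts. Of 102 member values under an alternative, 93 moved by under 1 SD and 13 turned sign, among them ADIRF (0.37 with Cy5 over Cy3 on every array). The 93 do not measure stability, since leaving out 1 of 4 arrays cannot move a mean by 1 SD. The dye term, the filters and keeping marked spots left these ratios unchanged, and the series table repeats Agilent's processed ratios. FABP5 ran from 0.57 to 0.83 with 1 array left out. The arrays that share a slide are arrays 2 to 4, so that alternative equals leaving out array 1. Each ratio already sets treated against untreated RNA on the same array, which the labels do not tie to the same gilt. The arrays form 1 group, so no further replicate block was fitted. The number of arrays and the dim signal of CD36, LPL, PPARA, FABP4 and PPARD limit the precision.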

Other observations

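RBP4, the retinol carrier, had the widest swing among the named lipid genes, with ratios of 0.011, -0.093, -2.99 and 1.39 on arrays 1 to 4. The epithelial marker EPCAM had 0.24, -0.26, -2.69 and 1.11 on the same arrays, and KRT8, an epithelial keratin, had 0.43, -0.65, -1.49 and 0.67. All 3 were lowest on array 3 and highest on array 4. The part of epithelial content in the RBP4 ratio was not tested.

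Of 1937 named genes, those with ratios nearest to FABP5 over the 4 arrays were BCL2A1, CCR1, CALR and AMBN, with root mean square differences of 0.19, 0.24, 0.27 and 0.28. BCL2A1 had 0.28, 0.46, 1.28 and 0.47 on arrays 1 to 4. The genes nearest to ADIRF were HSP70.2, SERPINF1, EIF4EBP2 and FAM210B, with differences of 0.17, 0.18, 0.24 and 0.28. SERPINF1 had -0.29, -0.99, -0.28 and -1.33.

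The 4 FABP5 probes ranked the arrays differently by level. Averaged over both channels, probe A_72_P623937 was at 13.33, 13.22, 12.41 and 11.53 on arrays 1 to 4, a range of 3.49-fold, and probe A_72_P572769 at 12.03, 13.29, 12.40 and 12.74. The first was thus highest on array 1 and the second lowest there. The remaining probes had ranges of 1.67-fold and 1.71-fold.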
